A study of Mus musculus with 12 samples.

Results

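The genes described here encode the nuclear subunits of oxidative phosphorylation, the last stage of respiration in mitochondria. They were chosen by symbol: every gene whose annotated symbol begins like a subunit of NADH dehydrogenase, cytochrome bc1, cytochrome c oxidase or ATP synthase, with the Sdh genes and Cyc1 added and the assembly factors left out. The rule found 80 genes among the 12393 measured, namely 34 of complex I, 4 of complex II, 9 of complex III, 16 of complex IV and 17 of complex V. These 80 genes had 151 probe sets, and each gene is shown by its brightest probe set, by the mean of the 12 arrays. The rule picks genes by symbol alone and uses measured levels only to choose the probe set of a gene. The gene group was, however, chosen with earlier results of these data known.

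The study asked how the ileum, the distal stretch of the small intestine, responds to dietary quercetin, a plant flavonol, with and without cytochrome P450 reductase (POR). POR is the flavoprotein that hands electrons to the P450 enzymes of the endoplasmic reticulum, and it is no part of the respiratory chain. All mice were C57BL/6 males aged 6 to 8 weeks, adapted for 14 days to the RM3 powdered diet, which is free of soya. Gene expression was measured on Affymetrix 430A arrays in 4 groups of 3 arrays: wild type on the control diet, wild type on quercetin, POR-null on the control diet and POR-null on quercetin. The quercetin groups received 6.2 g per kg of diet, equal to 7 mg for each mouse, over 24 h before sampling. RNA came from the scraped epithelial layer, and 3 mice were pooled for each array. The labels do not say which tissues lacked POR in the null mice, and the targeted gene is not analysed here, so the genotype labels were not checked against its expression. They also do not say whether the pools of a group came from separate litters or days, so p-values measure the spread between these pools.

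Complex I takes electrons from NADH and complex II takes them from succinate. Both pass them through ubiquinone to complex III, from which cytochrome c carries them to complex IV, where oxygen is reduced. Complexes I, III and IV pump protons, and complex V, the ATP synthase, uses their return to make ATP. Absorptive cells of the intestine spend much ATP on ion and nutrient transport. Several subunits of complex IV exist as isoforms made in different tissues, and many promoters of this gene group are known to carry sites for the transcription factors NRF1, GABPA, YY1 and the oestrogen-related receptors.

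Promoter windows from RefSeq (GRCm38.p6), reaching from 250 bases before to 50 bases after each gene's start, matched 65 of the 80 genes with 70 windows. They were searched on both strands for 6 short motifs. The NRF1 motif GCGCANGCG lay in 18 of 70 windows, or 25.7%, against 8.58% of the 21263 windows of all protein-coding genes. The YY1 motif AAGATGGCG lay in 6 of 70 windows, or 8.57%, against 1.83%. The oestrogen-related receptor motif TCAAGGTCA lay in only 2 of 70, or 2.86%, against 0.334%. The GABPA motif CCGGAAGT, at 7.14% against 5.15%, and the NFY motif CCAAT, at 38.6% against 38.2%, lay closer to the share of all protein-coding windows. The TATA motif TATAAA lay in 11.4% against 12.6%. None of these motifs contains another, and a match describes the letters and shows no binding. The last 200 bases before the start are printed for 6 genes, chosen to show the motifs in members named below. Capitals mark motif matches, on either strand, so that ATTGG is CCAAT and ACTTCCGG is CCGGAAGT read from the other strand.
Atp5g2 (chr15:102671048-102671247, minus strand): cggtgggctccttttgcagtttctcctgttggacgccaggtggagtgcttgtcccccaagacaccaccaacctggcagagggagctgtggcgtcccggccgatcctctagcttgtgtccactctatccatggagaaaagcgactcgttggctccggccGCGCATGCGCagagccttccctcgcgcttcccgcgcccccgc
Sdha (chr13:74350241-74350440, minus strand): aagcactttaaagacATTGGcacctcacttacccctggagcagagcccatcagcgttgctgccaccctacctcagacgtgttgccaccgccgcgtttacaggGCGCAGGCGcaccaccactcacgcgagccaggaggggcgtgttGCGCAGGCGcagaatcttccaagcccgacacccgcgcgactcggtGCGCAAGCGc
Sdhd (chr9:50603850-50604049, minus strand): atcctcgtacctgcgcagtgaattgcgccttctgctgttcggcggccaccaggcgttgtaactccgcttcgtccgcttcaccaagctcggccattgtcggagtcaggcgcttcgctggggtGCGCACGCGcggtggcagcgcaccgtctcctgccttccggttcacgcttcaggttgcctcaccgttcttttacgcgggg
Atp5h (chr11:115419920-115420119, minus strand): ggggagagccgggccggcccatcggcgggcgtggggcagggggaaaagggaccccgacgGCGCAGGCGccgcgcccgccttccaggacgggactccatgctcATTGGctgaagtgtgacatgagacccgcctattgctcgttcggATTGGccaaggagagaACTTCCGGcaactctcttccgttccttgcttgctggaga
Uqcr11 (chr10:80406822-80407021, minus strand): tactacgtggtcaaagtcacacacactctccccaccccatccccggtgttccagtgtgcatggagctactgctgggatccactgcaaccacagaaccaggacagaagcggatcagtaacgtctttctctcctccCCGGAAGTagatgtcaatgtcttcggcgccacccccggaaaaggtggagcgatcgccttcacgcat
Ndufb11 (chrX:20617620-20617819, minus strand): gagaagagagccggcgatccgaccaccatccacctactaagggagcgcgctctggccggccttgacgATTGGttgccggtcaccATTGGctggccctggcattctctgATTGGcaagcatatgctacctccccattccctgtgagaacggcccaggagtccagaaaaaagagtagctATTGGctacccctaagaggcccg
Sdha and Sdhd, subunits of complex II, and Atp5g2 and Atp5h, subunits of complex V, held NRF1 matches in this stretch. Sdha held 3 of them, and the match of Atp5g2 reads on both strands. Uqcr11 of complex III held a GABPA match, and Ndufb11 of complex I held 4 CCAAT matches.

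The 80 genes were bright on these arrays. Their median log2 level was 9.94, against 5.93 over all 22626 probe sets tested, and 68 of them lay above the 90th percentile. Each member is shown by its brightest probe set, whereas the 22626 include the dimmer probe sets of every gene. These medians are therefore not like for like, and the gap between them is partly set by that choice. A level also depends on how well a probe set binds, so levels of different genes were not ranked as amounts. The 5 genes below the median of all probe sets were Cox4i2 (5.87), Cox6a2 (5.86), Cox6b2 (5.89), Cox8b (5.60) and Cox7c (4.65), all of complex IV. Cox4i2, Cox6a2, Cox6b2 and Cox8b are isoforms known from lung, striated muscle, testis or brown fat. Cox7c has no such restriction, and it was the only member below the lower quartile of all probe sets, 4.74. Other isoforms restricted in that way were above that median, with Cox8c of the testis at 8.15 and Cox7a1 of muscle at 7.68. The ubiquitous forms Cox4i1 (11.77), Cox6a1 (12.28), Cox6b1 (11.63) and Cox8a (11.77) were among the bright members. The group means of a score over 8 striated muscle markers lay between -0.06 and 0.03. That score is centred on each gene's mean of the 12 arrays, so it compares groups and cannot show how much muscle was present. The scraped layer carried its defining markers, with Vil1 of the brush border at 12.24, Epcam at 12.61 and the ileal bile acid binder Fabp6 at 12.42.

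Replicates were tight. The median residual SD of the members was 0.093 on the log2 scale, against 0.109 over all probe sets, and the SE of a difference between a pair of groups was 0.06 to 0.17. Array medians over all probe sets lay between 5.91 and 5.96. Wild-type control replicate 2 stood apart, at -25.57 on the first principal component of all probe sets, against -10.80 to 10.56 elsewhere. Its score over 7 proximal intestine markers (mean of the centred log2 levels) was 0.79, against -0.51 to 0.19 in the others, and it held the highest value of 19 of the 80 members. The text names 48 differences between a pair of groups by the smallest p in each complex. Of these, 23 moved by over 1.5 times or changed sign without some 1 array, 8 of them without wild-type control replicate 2.

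No subunit gene passed the test in any comparison. The test was limma's moderated test over all 22626 probe sets with Benjamini-Hochberg adjustment at 0.05, for quercetin in each genotype, for genotype on each diet, for their interaction and for both averages. The smallest adjusted p of a member was 0.269, for Ndufb11 on quercetin in wild type. The differences were small and bounded: in 313 of the 320 comparisons of a member between a pair of groups, the 95% interval lay within 0.5 on the log2 scale on either side of 0, and in all 320 within 1. The largest difference of a member was 0.48. Array means over the 80 genes, each centred on its mean of 12 arrays, were 0.01 ± 0.05 in wild-type control, 0.04 ± 0.03 in wild-type quercetin, -0.03 ± 0.03 in POR-null control and -0.02 ± 0.03 in POR-null quercetin (SD, n = 3). In bulk RNA, fewer cells of a type and less RNA per cell cannot be told apart.

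**Figure D1:**
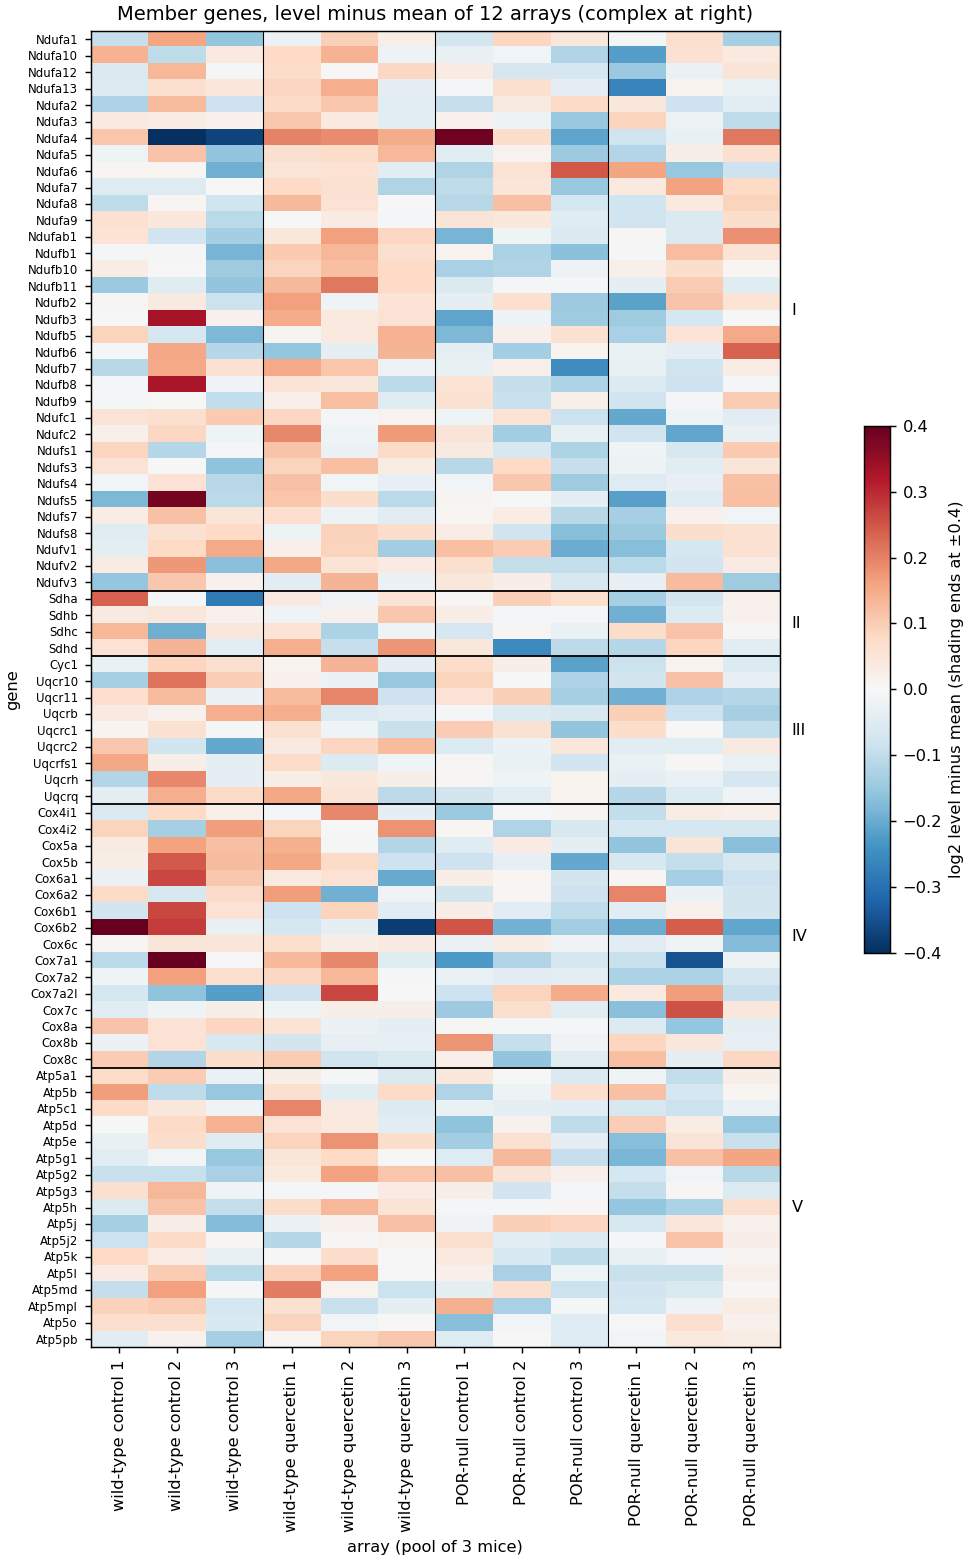
Log2 level of each of the 80 genes on each of the 12 arrays, minus the gene's mean over the 12 arrays; rows are genes ordered by complex, columns are arrays ordered by group, and shading ends at 0.4 on either side of 0. Wild-type control 2 holds 19 of the row maxima, wild-type control 3 holds 18 of the row minima, and Ndufa4, Cox6b2 and Cox7a1 have the strongest shading.

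**Figure D2:**
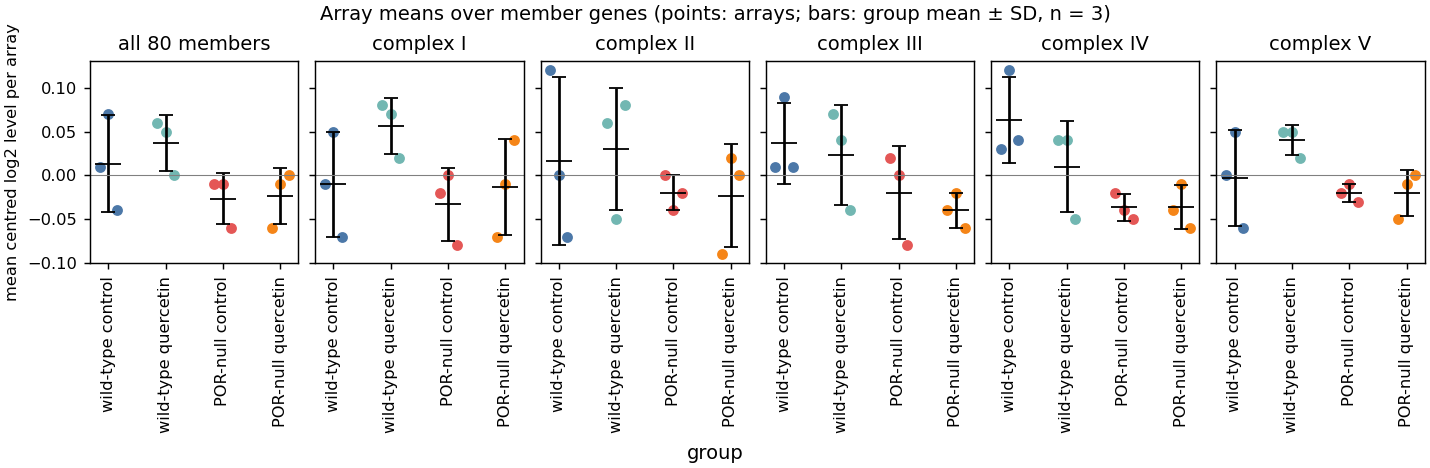
Mean centred log2 level per array over all 80 genes and over each complex; points are arrays and black bars are group means ± SD (n = 3). In the panel of complex IV the POR-null arrays lie between -0.06 and -0.01, the wild-type control arrays between 0.03 and 0.12, and the wild-type quercetin arrays, from -0.05 to 0.04, overlap the POR-null ones.

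The first comparison asked what quercetin did in wild-type mice. Complex I genes were mostly higher on quercetin, by small amounts. Of the 80 genes, 48 were higher, 30 lower and 2 equal, with a median difference of 0.02 (log2). Over all probe sets the median was -0.02, with 57.0% below 0 and 41.8% above, and over the 1439 probe sets at least as bright as the members' lower quartile (9.28) 46.1% lay below 0 and 52.6% above. None of the members passed, where 0.00442% of all probe sets did, and 5 members had an unadjusted p under 0.05 in limma, against 10.9% of all probe sets. Among complex I genes 27 of 34 were higher, with a median of 0.06, and between 23 and 30 were higher under every scaling, probe set choice and left-out array tried. The array means over complex I overlapped, at -0.01, 0.05 and -0.07 on control and 0.08, 0.07 and 0.02 on quercetin. Of 17 complex V genes 10 were higher, with a median of 0.02, and of 16 complex IV genes 10 were lower (62.5%, near the share of all probe sets), with a median of -0.04. The 9 complex III genes had a median of -0.03 with 3 higher, and 0.02 with 5 higher without wild-type control replicate 2 or wild-type quercetin replicate 3, and the 4 Sdh genes a median of 0.02 with 3 higher. Markers of other cell types moved in this comparison too. Of 9 markers of proliferating crypt cells 7 had higher values on quercetin (median 0.28), and the median was 0.12 without wild-type control replicate 2. Their array scores ran from -0.38 to 0.02 on control and 0.06 to 0.22 on quercetin. Of 8 markers of B and plasma cells 7 were higher, with a median of 0.44 and scores from -0.37 to 0.12 on control and 0.14 to 0.39 on quercetin. Of 7 proximal intestine markers 6 were lower, with a median of -0.35, and -0.17 without that control array, and scores from 0.01 to 0.79 on control and -0.51 to 0.19 on quercetin. None of these markers had a difference of exactly 0, and their part in the result was not tested.

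Ndufb11, a small accessory subunit in the membrane arm of complex I, had the smallest p. Its log2 levels were 9.93, 10.03 and 9.92 in wild-type control and 10.21, 10.29 and 10.16 in wild-type quercetin. In POR-null mice they were 10.02, 10.07 and 10.07 on control and 10.04, 10.18 and 10.03 on quercetin. All 3 wild-type quercetin arrays lay above all 3 wild-type controls, and the POR-null groups overlapped. The difference in wild type was 0.26 ± 0.07 (log2, SE; 1.20-fold; limma adjusted p = 0.269), and the other probe sets of the gene gave 0.21 and 0.10.

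Ndufa4, counted here in complex I by its symbol although it is now known as a subunit of complex IV, gave the largest difference of any member. Its levels were 9.99, 9.25 and 9.51 in wild-type control and 10.08, 10.07 and 10.03 in wild-type quercetin. The quercetin arrays lay close together above the controls, which spread widely. The difference was 0.48 ± 0.17 (adjusted p = 0.344), and 0.31 without wild-type control replicate 2. Counting the gene in complex IV left the complex IV median at -0.04 and gave 0.05 for complex I.

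Ndufb1, another accessory subunit, was 0.17 ± 0.08 higher on quercetin, without overlap, and 0.11 without wild-type control replicate 3. Cox6b2, the testis isoform of a subunit that joins the monomers of the complex IV dimer, was lower. Its levels were 6.37, 6.17 and 5.86 in wild-type control and 5.82, 5.85 and 5.51 on quercetin, just separate and near the median level of all probe sets. Its difference was -0.41 ± 0.16 (adjusted p = 0.381). The ubiquitous isoform Cox6b1 differed by -0.10 ± 0.09, and by 0.00 without wild-type control replicate 2. Cox7a2l, a factor that links complexes III and IV into supercomplexes, differed by 0.21 ± 0.10, and by 0.11 without wild-type quercetin replicate 2. Cox6a1 differed by -0.15 ± 0.09, and by -0.08 without wild-type control replicate 2 or -0.07 without wild-type quercetin replicate 3. In complex III, the core protein gene Uqcrc2 differed by 0.14 ± 0.08, the small subunit gene Uqcr10 by -0.11 ± 0.10 and the Rieske iron-sulphur protein gene Uqcrfs1 by -0.05 ± 0.07. Single arrays moved these values: that of Uqcrc2 was 0.22 without wild-type control replicate 1 and 0.07 without replicate 3. That of Uqcr10 was -0.21 without wild-type control replicate 1, -0.04 without replicate 2 and -0.06 without wild-type quercetin replicate 3, and that of Uqcrfs1 ran from -0.09 to 0.01. In complex V, Atp5j differed by 0.13 ± 0.07 and Atp5pb by 0.12 ± 0.06, both with overlapping groups. A second probe set of Atp5pb (mean level 10.07) gave -0.06. The Sdh genes differed by 0.04 (Sdha), 0.00 (Sdhb), -0.02 (Sdhc) and 0.03 (Sdhd), each with overlapping groups. A second probe set of Sdha (mean level 9.60) gave -0.11.

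**Figure D3:**
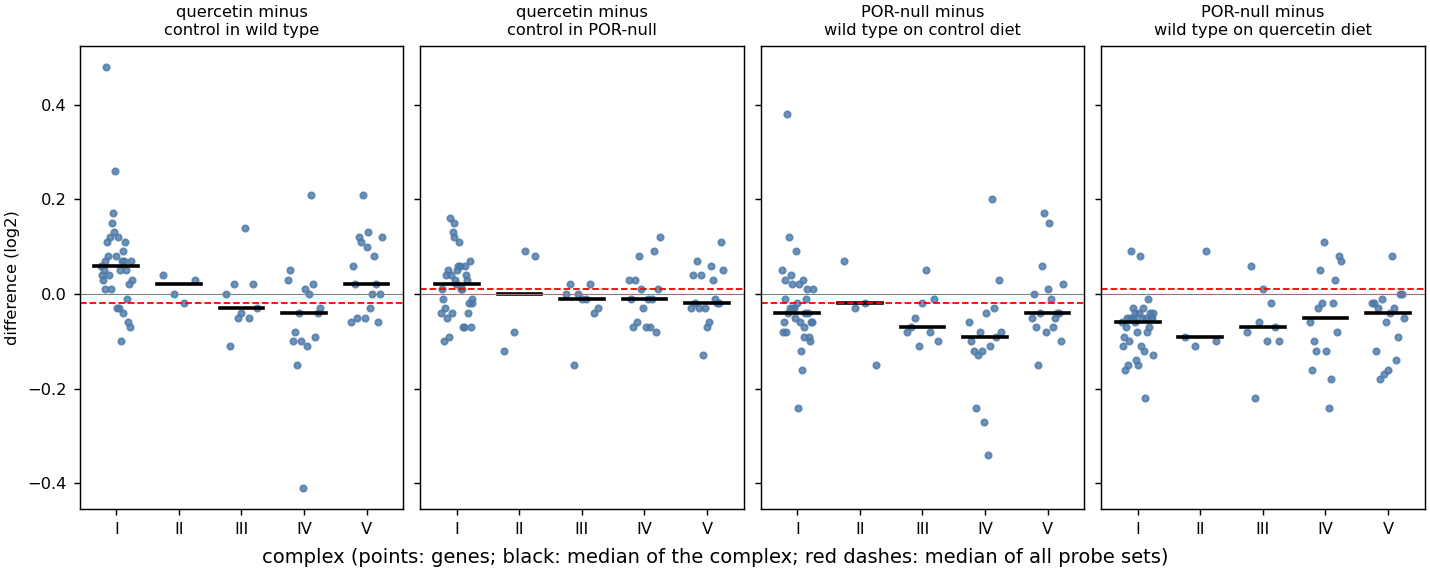
Difference of each gene between a pair of groups (log2), by complex I to V, in 4 panels; points are genes, black lines the median of a complex and the red dashed line the median of all probe sets. On quercetin, 32 of 34 complex I genes lie below 0 in POR-null minus wild type, and on control 14 of 16 complex IV genes do.

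The second comparison asked for the same response in POR-null mice. The subunit genes hardly differed there: 38 were higher, 41 lower and 1 equal, with a median of -0.01, against a median of 0.01 with 44.3% below 0 and 54.5% above over all probe sets and 55.9% below 0 over the bright ones. None passed (0.0% of all probe sets passed), and 0 of the 80 had an unadjusted p under 0.05 in limma, against 6.65% of all probe sets. Every member's 95% interval lay within 0.5 of 0. The 3 complex I genes with the smallest p were accessory subunits, Ndufa7 (0.16 ± 0.08), Ndufb1 (0.15 ± 0.08) and Ndufb10 (0.12 ± 0.07). Only Ndufb10 of these kept its groups apart, at 8.25, 8.26 and 8.36 on control and 8.40, 8.45 and 8.39 on quercetin. It was also separate in wild type, where it differed by 0.13 ± 0.07, and by 0.08 without wild-type control replicate 3.

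In complex III, Uqcr11 differed by -0.15 ± 0.09, Uqcrh, the hinge protein that helps cytochrome c bind, by -0.04 ± 0.08 and Uqcrq by -0.03 ± 0.08. In complex IV, Cox8c differed by 0.12 ± 0.08, Cox8a by -0.08 ± 0.06 and Cox6c by -0.07 ± 0.06. In complex V, Atp5o, a subunit of the stalk, differed by 0.11 ± 0.07 and Atp5d, of the rotor, by 0.07 ± 0.08. Their adjusted p-values in limma were 0.797 or more. All quercetin arrays lay below all controls for Uqcrh and Cox8a and above them for Atp5o, and the rest overlapped. Without POR-null quercetin replicate 2 the value of Cox8a was -0.04, and without replicate 3 that of Cox6c was -0.03. Without POR-null control replicate 2 that of Cox8c was 0.07, and without replicate 1 that of Atp5o was 0.06. Leaving out 1 array gave 0.02 to 0.14 for Atp5d and -0.05 to 0.00 for Uqcrq. Other probe sets had the opposite sign for Atp5d (-0.05, mean level 10.55) and Cox8a (0.13, mean level 6.14). Dimmer probe sets of Uqcrq gave 0.04 to 0.09.

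The third comparison asked how POR-null mice on the control diet differed from wild type. Most subunit genes were slightly lower, those of complex IV most of all, and outside complex IV much of this rested on wild-type control replicate 2. Of the 80, 59 were lower and 21 higher, with a median of -0.04, against 55.4% below 0, 43.4% above and a median of -0.02 over all probe sets. Over the bright probe sets 42.0% were lower. None of the members passed (0.0% of all probe sets passed; smallest adjusted p 0.386), and 4 had an unadjusted p under 0.05 in limma, against 10.1% of all. Complex IV genes were lower in 14 of 16, with a median of -0.09, complex III genes in 8 of 9, with a median of -0.07, and complex I and V genes had medians of -0.04. Without wild-type control replicate 2, 46 of 80 (57.5%) were lower, against 56.2% of all probe sets. Complex I then had 15 of 34 lower, with a median of 0.01, and complex IV still had 14 of 16 lower, with a median of -0.07. Complex III had 5 of 9 lower, with a median of -0.02, as it also had without POR-null control replicate 3, and complex V had a median of 0.00.

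Cox5b, a zinc-binding subunit of complex IV, had the smallest p. Its levels were 12.14, 12.36 and 12.24 in wild-type control, 12.27, 12.19 and 12.03 in wild-type quercetin, 12.03, 12.08 and 11.91 in POR-null control and 12.05, 12.02 and 12.05 in POR-null quercetin. The control groups did not overlap, and on quercetin the lowest wild-type array reached into the POR-null range. The difference on control was -0.24 ± 0.08 (adjusted p = 0.386), and all 5 other probe sets of the gene were below 0 too, from -0.21 to -0.09.

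Ndufb3, an accessory subunit of complex I, stood at 8.75, 9.08 and 8.77 in wild-type control and 8.54, 8.73 and 8.61 in POR-null control. The groups were separate, and the highest wild-type value came from replicate 2. The difference was -0.24 ± 0.09 (adjusted p = 0.411), and -0.13 without that array. Ndufb8 differed by -0.16 ± 0.09, and by -0.04 without it. Cox7a1, the muscle and heart isoform of a small complex IV subunit, stood at 7.57, 8.39 and 7.68 in wild-type control and 7.45, 7.56 and 7.61 in POR-null control. Its difference of -0.34 ± 0.17 came to -0.09 without the array at 8.39. Ndufa4 was higher in POR-null control, by 0.38 ± 0.17, over overlapping arrays. That value was 0.58 without wild-type control replicate 1, 0.21 without replicate 2 and 0.23 without POR-null control replicate 1. The remaining members with the smallest p were Cox7a2l (0.20 ± 0.10), Uqcrb (-0.11 ± 0.08), Uqcrq (-0.10 ± 0.08), Uqcrfs1 (-0.08 ± 0.07), Atp5j (0.15 ± 0.07) and Atp5d (-0.15 ± 0.08). The value of Uqcrq was -0.06 without wild-type control replicate 2, that of Uqcrb -0.07 without replicate 3 and that of Uqcrfs1 -0.03 without replicate 1. A second probe set of Uqcrb (mean level 8.84) gave 0.06.

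The fourth comparison set POR-null against wild type on quercetin. It was the most one-sided of the 4 for these genes: 67 of the 80 genes were lower and 13 higher, with a median of -0.06. Over all probe sets 43.8% were lower and 54.9% higher, with a median of 0.01, and over the bright ones 58.3%, with a median of -0.02. The median of the members corresponds to a change of -3.85% in level. None passed (0.0% of all probe sets passed; smallest adjusted p 0.627). In limma 5 members had an unadjusted p under 0.05, all lower, where 7.01% of all probe sets reached that p and 3.14% were lower. Of the 1439 bright probe sets 71 reached it and were lower. In 11 members all POR-null arrays lay below all wild-type arrays, against 5.0% of all probe sets, and in 0 members all lay above, against 7.28%. Of the 1439 bright probe sets 116 lay below in this way and 95 above. Complex I genes were lower in 32 of 34, with a median of -0.06, though in 23 of 34 without POR-null quercetin replicate 1. The array means over complex I overlapped, at 0.08, 0.07 and 0.02 in wild-type quercetin and -0.07, -0.01 and 0.04 in POR-null quercetin. Of the 17 complex V genes 14 were below 0, 7 of 9 complex III genes and 11 of 16 complex IV genes were below 0, and among complex IV genes 8 of 16 were so without wild-type quercetin replicate 2. Leaving out any 1 array kept 59 to 69 of the 80 below 0, with 21 above 0 without POR-null quercetin replicate 1.

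Ndufc2, an accessory subunit of complex I, stood at 9.49, 9.28 and 9.47 in wild-type quercetin and 9.22, 9.09 and 9.27 in POR-null quercetin. The lowest wild-type array lay just above the highest POR-null array. The difference was -0.22 ± 0.08 (adjusted p = 0.627), and the other probe set gave -0.20. Uqcr11, a small subunit of complex III, stood at 9.64, 9.71 and 9.43 in wild-type mice, against 9.32, 9.39 and 9.40 in POR-null mice. Its groups were separate by a small gap, with a difference of -0.22 ± 0.09 (adjusted p = 0.660).

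Cox7a2, the ubiquitous isoform of the subunit of which Cox7a1 is the muscle form, stood at 11.92, 11.97 and 11.83 in wild-type mice, against 11.71, 11.71 and 11.77 in POR-null mice. On control its levels were 11.82, 12 and 11.90 in wild-type mice, against 11.81, 11.79 and 11.80 in POR-null mice. Every POR-null array lay below every wild-type array on the same diet. The difference was -0.18 ± 0.07 on quercetin (adjusted p = 0.660) and -0.11 ± 0.07 on control, where it was -0.06 without wild-type control replicate 2, and the other probe set gave -0.09 and -0.07. Atp5e, a subunit of the rotor, stood at 9.25, 9.34 and 9.23 in wild-type mice, against 8.99, 9.21 and 9.07 in POR-null mice, which did not overlap. Its difference was -0.18 ± 0.08 (adjusted p = 0.681). Cox4i2, the lung isoform, differed by -0.16 ± 0.08 at a level near the median of all probe sets, and Cox6c by -0.12 ± 0.06, both without overlap. Ndufb11 (-0.14 ± 0.07), Ndufa13 (-0.16 ± 0.08), Uqcrc2 (-0.10 ± 0.08), Uqcrq (-0.10 ± 0.08) and Atp5h (-0.16 ± 0.08) overlapped between groups, and the value of Ndufa13 was -0.07 without POR-null quercetin replicate 1. That of Cox6c was -0.07 without POR-null quercetin replicate 3, and that of Uqcrq was -0.04 without wild-type quercetin replicate 1 and -0.17 without replicate 3. Uqcrq had 3 dimmer probe sets with values above 0, from 0.08 to 0.13.

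The genotype comparisons on the 2 diets share no arrays. On both diets 47 of the 80 members, or 58.8%, were lower in POR-null mice, against 21.6% of all probe sets. Without wild-type control replicate 2 these shares were 47.5% and 22.5%. On control 59 of 80 members were lower and on quercetin 67 of 80, so most of the 47 were bound to be lower on both. The joint count is therefore no separate evidence beside the counts of each diet. Averaged over diets, 67 members were lower, 12 higher and 1 equal, with a median of -0.05 (all probe sets 50.5% below 0 and 48.6% above, bright ones 45.9% below), and all 9 complex III genes were below 0, or 6 to 9 under the alternatives. Leaving out 1 array gave 57 to 68 members below 0. In that average 7 members had an unadjusted p under 0.05, all lower: Ndufb3, Ndufc2, Uqcr11, Cox4i2, Cox5b, Cox7a1 and Cox7a2. The smallest adjusted p was 0.509, 0.0% of all probe sets passed, 7.12% had an unadjusted p under 0.05 and 3.4% had it and were lower. Of the 1439 bright probe sets 76 had it and were lower. Another measure moved with genotype: a score over 19 markers of smooth muscle and stroma had means of -0.28 ± 0.20 (control) and -0.21 ± 0.40 (quercetin) for wild-type mice, with 0.24 ± 0.61 (control) and 0.26 ± 0.21 (quercetin) for POR-null mice (SD, n = 3). Of these 19 genes 18 were higher in POR-null mice on control and 18 on quercetin, with medians of 0.40 and 0.25, against 43.4% and 54.9% of all probe sets. The smooth muscle myosin gene Myh11 had a mean level of 5.99, near the median of all probe sets (5.93), and the actin gene Acta2 of 8.22. The array scores ran from -0.52 to -0.16 in wild-type control and -0.50 to 0.24 in wild-type quercetin. They ran from -0.43 to 0.78 in POR-null control and 0.07 to 0.48 in POR-null quercetin. The part of this score in the result was not tested.

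Atp5g2, which encodes a copy of the c subunit of the rotor ring of complex V, was the member whose response to quercetin differed most between genotypes by p. Its levels were 10.02, 10.02 and 9.98 in wild-type control, 10.15, 10.27 and 10.22 in wild-type quercetin, 10.23, 10.16 and 10.13 in POR-null control and 10.04, 10.10 and 10 in POR-null quercetin. Quercetin arrays lay above control arrays in wild type and below them in POR-null mice, with no overlap in either. The differences were 0.21 ± 0.06 and -0.13 ± 0.06, and the interaction was -0.33 ± 0.09, with an unadjusted p of 0.00259 and a limma adjusted p of 0.351. POR-null minus wild type was 0.17 ± 0.06 on control and -0.17 ± 0.06 on quercetin. These comparisons share arrays. A second, dim probe set of the gene (mean level 4.30) gave -0.10 and 0.01 for quercetin and -0.02 and 0.09 for genotype, so the pattern was seen on 1 of its 2 probe sets. Its paralogues encode the same mature protein: Atp5g1 differed on quercetin by 0.11 ± 0.09 in wild type and 0.04 ± 0.09 in POR-null mice, and Atp5g3 by -0.05 ± 0.07 and -0.03 ± 0.07. These 4 values moved by over 1.5 times or changed sign without some 1 array, whereas the interaction of Atp5g2 ran from -0.36 to -0.30.

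No member passed the interaction test, where 0.0% of all probe sets did. Unadjusted p was under 0.05 in limma for 3 members, Atp5g2, Ndufb11 (-0.23 ± 0.10) and Ndufa4 (-0.53 ± 0.24), against 10.3% of all probe sets. The median over members was -0.02, with 45 below 0, 33 above and 2 equal, against 42.3% below 0 and 57.0% above over all probe sets. Over the bright probe sets 59.8% lay below 0, with a median of -0.05. Complex I had a median of -0.04 and complex IV of 0.06. Quercetin averaged over genotypes had no call among the members (0.0% of all probe sets), a median of 0.01 and 4 members with an unadjusted p under 0.05, against 7.44% of all probe sets in either direction and 3.69% higher. Over all probe sets 50.6% lay below 0 and 48.3% above. The 4 members with that p were the complex I genes Ndufab1 (0.14), Ndufb1 (0.16), Ndufb10 (0.13) and Ndufb11 (0.14), all higher. Of the 1439 bright probe sets 133 had such a p and were higher.

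**Figure D4:**
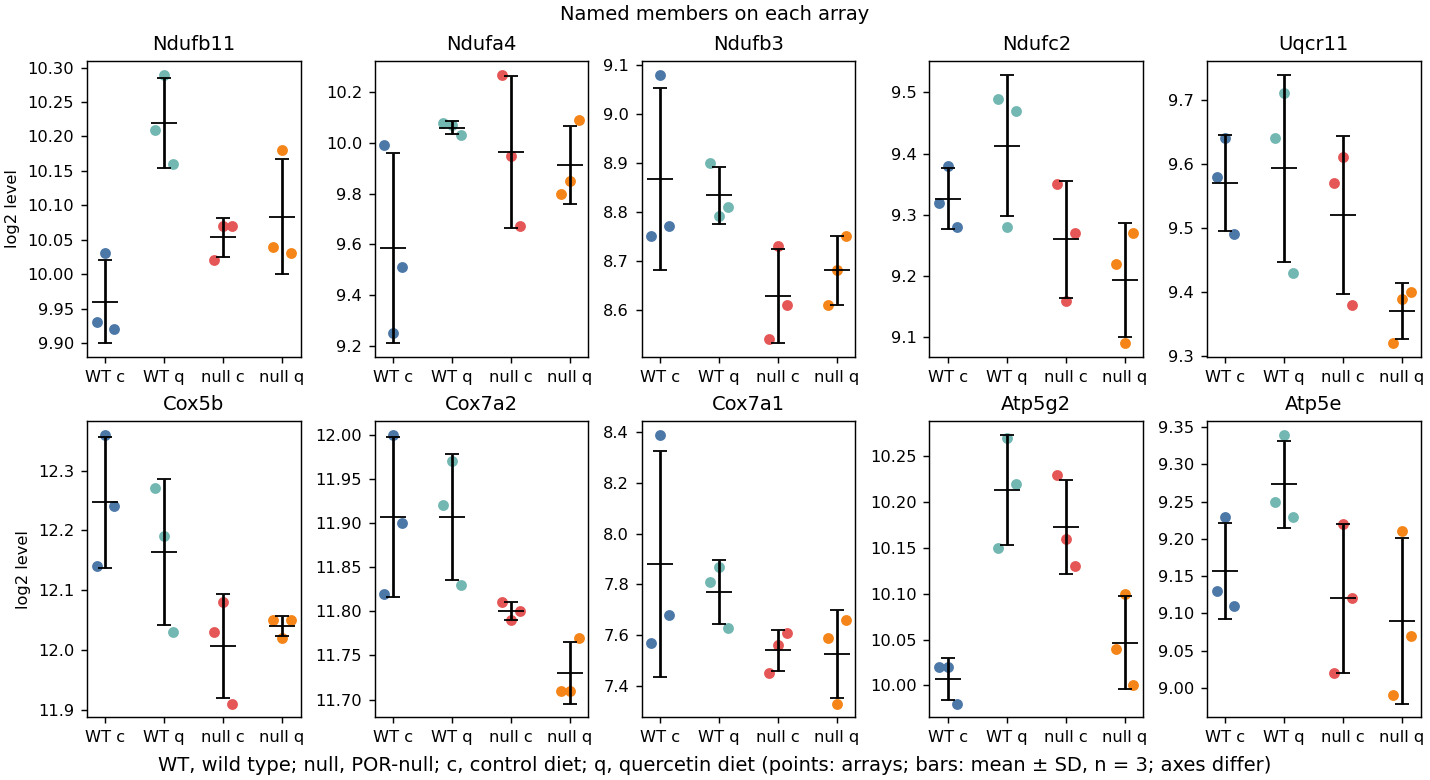
Log2 level on each array of 10 members, by group (wild type, WT, or POR-null; control diet, c, or quercetin, q); points are arrays, black bars the mean ± SD (n = 3), and each panel has its own axis. The 4 groups of Atp5g2 have means of 10.01, 10.21, 10.17 and 10.05, and every POR-null array of Cox7a2 lies below the wild-type arrays of the same diet.

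Within isoform families the members could be set side by side by their differences. Cox4i1, Cox6a2, Cox6b1, Cox8b and Atp5g1 had differences between 0.11 and -0.12 in the 4 comparisons between pairs of groups. The 17 genes with an NRF1 match in a window had medians of 0.03 for quercetin in wild type, -0.02 in POR-null mice, -0.05 for genotype on control and -0.07 on quercetin. The 48 genes with a window and no such match had 0.02, 0.01, -0.04 and -0.05. On quercetin 15 of 17 and 41 of 48 of them were lower in POR-null mice. The probe sets used for Cox5b, Cox8a, Sdhc, Ndufa3, Ndufa7, Ndufa12 and Ndufs8 are of the kind whose name ends in x_at, which may also bind related transcripts. Names ending in s_at belong to those used for Ndufc2, Ndufa2, Ndufa13, Ndufab1, Uqcrq, Cox7c, Atp5c1, Atp5d, Atp5e, Atp5j2 and Atp5pb. Whether these bind other transcripts was not checked. Of the 44 members with several probe sets, 13 had probe sets of opposite sign for genotype on quercetin, and between 16 and 21 in the other 3 comparisons.

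Other mitochondrial gene lists were measured beside the subunits, and none of their genes passed either. The 74 genes of the mitochondrial ribosome, which makes the subunits encoded in mitochondrial DNA, were the most one-sided on quercetin in wild type: 67 were higher, with a median of 0.11, and 15 had an unadjusted p under 0.05 in limma, all higher. Over all probe sets 41.8% were higher and 5.32% had such a p and were higher. Over the bright probe sets 52.6% were higher, and 198 of 1439 had such a p and were higher. The lowest array score of the ribosome list, -0.11, was that of wild-type control replicate 2. Mrps26 (0.33 ± 0.08, adjusted p = 0.237), Mrps17 (0.38 ± 0.11, and 0.24 without wild-type control replicate 2) and Mrps14 (0.31 ± 0.09) had the smallest p. In POR-null mice quercetin went with higher values in 46 of 74 (median 0.03), against 54.5% of all probe sets and 43.2% of the bright ones. On control 53 of 74 were higher in POR-null than in wild type, and on quercetin 49 of 74 were lower, with medians of 0.06 and -0.04. Over all probe sets these shares were 43.4% and 43.8%, and over the bright ones 56.9% and 58.3%. On control without wild-type control replicate 2, 45 of 74 were higher, with a median of 0.03.

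Of 21 protein import genes 17 were higher on quercetin in wild type, with a median of 0.09 (all probe sets 41.8% higher, bright ones 52.6%). Timm50, a receptor of the inner membrane, led them (0.37 ± 0.09, limma adjusted p = 0.240). The score of this list was lowest on wild-type control replicate 2, at -0.12. Of 35 assembly factors measured, 23 were higher on quercetin in wild type, with a median of 0.05. On quercetin 12 were higher in POR-null than in wild type, with a median of -0.06. These shares were 41.8% and 54.9% over all probe sets, and 52.6% and 40.4% over the bright ones. Lrpprc, which stabilises mitochondrial messenger RNAs, differed by 0.30 ± 0.10 on quercetin in wild type and Sco2, which delivers copper to complex IV, by 0.91 ± 0.29 in the interaction (adjusted p = 0.401). Among 16 biogenesis regulators, Esrra, the gene of an oestrogen-related receptor, differed by 0.31 ± 0.09 between genotypes on control (adjusted p = 0.334). It had means of 8.65 and 8.81 in wild-type mice, against 8.95 and 8.75 in POR-null mice, on control and quercetin. Ppargc1a, the gene of the coactivator PGC-1 alpha, differed by 0.20 ± 0.13 on control, and by 0.10 without wild-type control replicate 3.

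Among 15 carriers, Slc25a4, the muscle and heart form of the carrier that exchanges ATP for ADP, had the smallest p, at 0.68 ± 0.14 between genotypes on control (adjusted p = 0.224). Its means were 8.11 and 8.34 in wild-type mice, against 8.80 and 8.60 in POR-null mice. Cycs, the gene of cytochrome c, differed by -0.28 ± 0.09 there (adjusted p = 0.364). Of 16 genes of the citric acid cycle and pyruvate dehydrogenase, 11 were lower in POR-null mice on control, with a median of -0.05 (all probe sets 55.4% lower). Mdh2, the mitochondrial malate dehydrogenase, differed by -0.46 ± 0.12 (adjusted p = 0.305) and Cs, citrate synthase, by -0.22 ± 0.09.

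**Figure D5:**
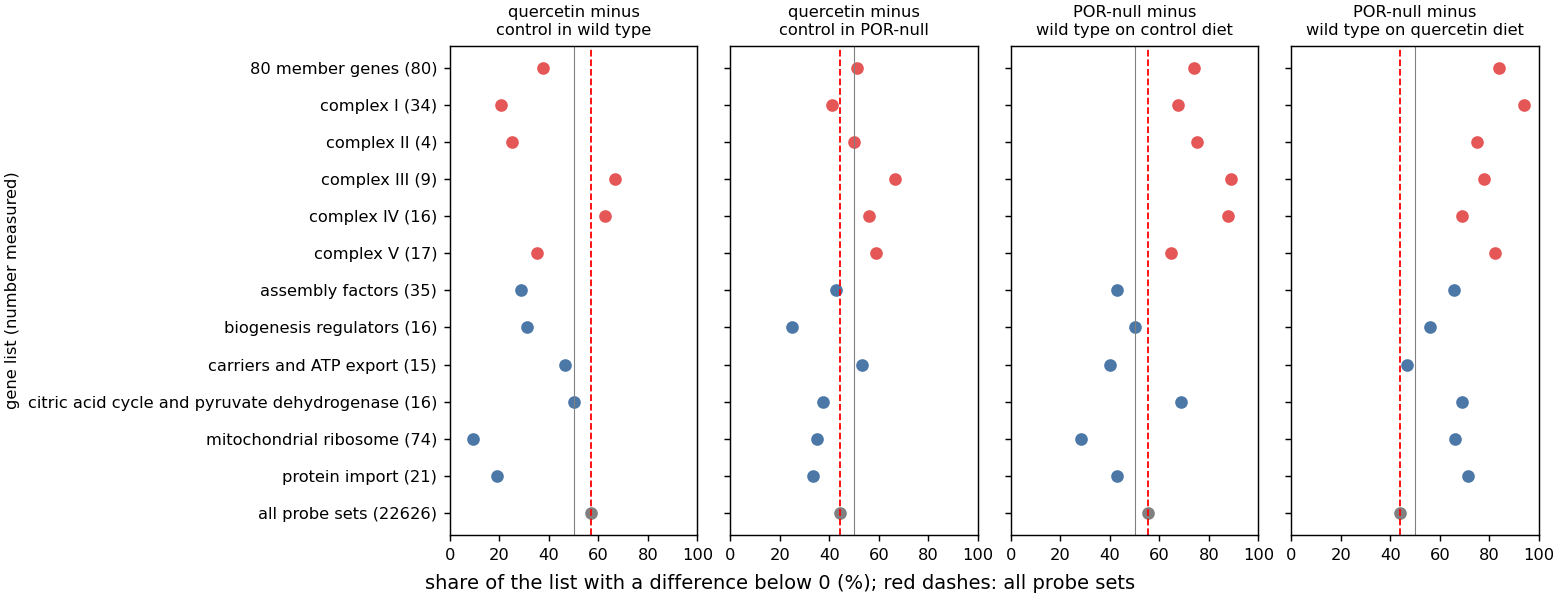
Share of each gene list with a difference below 0 (percent) in the 4 comparisons between pairs of groups; red points are the subunit genes and their complexes, blue points the other mitochondrial lists, the grey point and red dashed line all probe sets, and the number of genes measured is in brackets. On quercetin 83.8% of the subunit genes lie below 0 in POR-null minus wild type, against 43.8% of all probe sets.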

How the data were processed

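The values the authors deposited are log2 levels, with 1 value for each probe set on each array. MAS5 and RMA are named, with no role or version, per the submitters' processing notes, and how each was used is not given in the sources used here. The values ran from 2.66 to 14.04 and were used as deposited. Precision is limited by the number of arrays. After 64 array controls were removed from 22690 probe sets, 22626 were tested. By the platform annotation 20380 of these had 1 symbol, 691 had several and 1555 had none. All 80 members matched the RefSeq gene table by gene ID, and 8 probe sets with several symbols that included a member were not used.

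All 12 arrays entered 1 fit of group means (limma 3.58.1, R 4.3.3, functions lmFit and eBayes, residual df 8, prior df 5.59), with Benjamini-Hochberg adjustment over all probe sets at 0.05. The fit was tested on simulated data with known changes. The members and lists were chosen with earlier results of these data known, so a list is described by its counts and median beside those of all probe sets, with no test of the list. Named members were, per comparison between a pair of groups, the 3 with the smallest p in complexes I, III, IV and V, with all Sdh genes and the isoform families. Of other lists, up to 4 genes with the smallest p are named. An array score is the mean over a list of log2 levels centred on each gene's mean of 12 arrays.

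Arrays with the same replicate number did not deviate together: over 18 same-number pairs the correlation of deviations from group means ran from -0.18 to 0.16, and 3 exceeded 0.1. The numbers were therefore not used as pairs. The alternatives were array medians set equal, quantile normalization, a filter at the lower quartile of brightness, array weights, a trended and robust eBayes, a replicate block, a fit to the compared groups alone, probe sets averaged by gene, Ndufa4 counted in complex IV, and each array left out in turn. Python 3.11.15 made the tables (pandas 2.3.3) and the figures (matplotlib 3.10.9).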

Additional observations from a re-analysis of the deposited data

How the results depend on the processing

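No member passed the threshold under any alternative tried. Of 960 recomputed differences of named members, 957 kept their sign and their side of the threshold. Much of this was fixed in advance. The brightness filter, the eBayes variant, the replicate block and the fit to the compared groups cannot change a difference of group means. Neither can leaving out an array of a group outside the pair. No member was near the threshold in the main fit (smallest limma adjusted p 0.269), so keeping its side says little. Uqcrfs1 on quercetin in wild type ran from -0.09 to 0.01 over left-out arrays, with 0.01 without wild-type control replicate 1. Uqcrq, with the mean of all its probe sets, came to 0.06 for genotype on quercetin and 0.04 for quercetin in POR-null mice, where 3 dimmer probe sets enter the mean. The median interaction of the members was -0.06 with array medians centred, against -0.02, and its count below 0 ran from 34 to 56 over the alternatives. Leaving out 1 array gave medians of 0.0017 to 0.04 for quercetin in wild type and -0.02 to 0.02 in POR-null mice. For genotype it gave -0.07 to -0.03 on control and -0.08 to -0.04 on quercetin, with 46 to 66 and 59 to 69 members below 0. Every group holds the same replicate numbers, so the replicate block leaves each difference as it was, with 59 and 67 members below 0 by construction. With the block the smallest limma adjusted p for quercetin in wild type was 0.224, and no call changed. With 3 arrays a group, differences near the SE of 0.06 to 0.17 cannot be told from 0.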
